A study of Homo sapiens with 6 samples.

Results

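Nodal and activin signalling was followed through 10 genes in undifferentiated hESCs of the established human line H7. The genes were taken by symbol from the deposited table of gene counts, in which all 10 were found among 61155 symbols, and all 10 were among the 19521 genes that passed the filter on low counts. They encode the ligands NODAL, GDF3 and INHBA, the co-receptor TDGF1, the receptors ACVR1B and ACVR2B, and the secreted antagonists LEFTY1, LEFTY2, CER1 and FST. Bulk RNA sequencing compared 3 libraries of wild-type (WT) H7 hESCs with 3 libraries of S6K1-/- H7 hESCs, in which CRISPR/Cas9 with a pair of guide RNAs had been directed at exons of RPS6KB1, the gene of p70 S6 kinase 1 (S6K1). The S6K1-/- cells derive from 1 clone, so that a difference between genotypes cannot be told apart from a difference between clones. Both groups carry no other allele or agent in the labels and were grown without feeder cells on Matrigel in TeSR-E8 medium. The labels also give a time of week 5 and the word knockdown, whereas the protocols describe undifferentiated cells and a knockout. Whether the libraries of a group came from separate cultures is not stated, so the p-values measure the spread between these libraries, which may be technical.

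Nodal and the activins are secreted ligands of the TGFβ family that bring type II and type I receptor kinases together, after which SMAD2 and SMAD3 are phosphorylated and enter the nucleus with SMAD4. Nodal needs a co-receptor of the Cripto family, whereas activins do not. The pathway keeps human pluripotent stem cells in the primed state and, at higher activity, drives mesoderm and endoderm. It also switches on its own extracellular inhibitors, the LEFTY genes and CER1, which makes them common readouts of its activity. The question asked of the data was whether loss of S6K1 was accompanied by a shift in these ligands, receptors and inhibitors.

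Library totals ranged from 21896698 to 24473013 counts, and 3 counts in a library corresponded to 0.122 to 0.138 CPM, which are counts divided by the TMM-scaled library total and multiplied by 1000000. RPS6KB1 had 831, 791 and 777 counts in WT and 464, 464 and 438 counts in S6K1-/- replicates 1, 2 and 3, and fell by 40.6% (edgeR adjusted p = 2.52e-07, by the quasi-likelihood F test and the Benjamini-Hochberg method over all genes tested, as for all adjusted p-values here). The counts are summed over the whole gene and do not resolve the targeted exons. Of 12 markers of pluripotent stem cells, all tested, DNMT3B (log2 fold change -0.35) and USP44 (-0.32) were lower and PRDM14 (0.29) was higher at an adjusted p under 0.001, against 2.54% and 1.42% of all genes, with POU5F1 at 181 and 177 CPM and NANOG at 191 and 198 CPM (means of WT and S6K1-/-, n = 3 each). Of the markers of other cell types, SOX17 of endoderm had at most 1 count in a library, HAND1 of mesoderm and amnion none, CDX2 of amnion and trophoblast at most 2 and DCN of mesenchyme none, whereas other genes of the same lists were present, with WT means of 104 CPM for KDR (mesoderm), 15.3 for GABRP and 5.03 for KRT7 (amnion and trophoblast) and 80.2 for COL1A1 (mesenchyme). None of 5 mesoderm markers and 3 amnion and trophoblast markers tested was past an adjusted p of 0.001, and of 6 neuroectoderm markers DCX was lower and PAX6 higher, against the same 2.54% and 1.42%. KRT7 came close, with a log2 fold change of -0.82 (edgeR adjusted p = 0.00103). At an adjusted p under 0.05, KRT7 was the 1 amnion and trophoblast marker lower, against 8.31% of all genes. MIXL1 (0.24, edgeR adjusted p = 0.0449) was the 1 mesoderm marker higher, against 5.47%.

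The 10 genes covered a wide range of levels. Compared per kilobase of exons, TDGF1 was the most abundant in WT hESCs, with 290, 311 and 309 CPM per kb in replicates 1, 2 and 3, and INHBA the least abundant, with 0.104, 0.0835 and 0.146 CPM per kb. Between them lay NODAL with a mean level of 35.7 CPM per kb, GDF3 with 27.4, LEFTY1 with 20.3, ACVR2B with 11.8, ACVR1B with 7.39, LEFTY2 with 7.07, FST with 2.48 and CER1 with 1.97 CPM per kb. The ranges of neighbors in this order did not overlap in WT hESCs, except for ACVR1B, from 7.20 to 7.54 CPM per kb, and LEFTY2, from 6.93 to 7.30 CPM per kb. The order of the mean levels was the same in S6K1-/- hESCs, where LEFTY2 had fallen to 3.77, CER1 to 0.403 and INHBA to 0.0247 CPM per kb. It was also the same in WT hESCs when the length of the canonical transcript replaced the union of all annotated exons. These hESCs thus held abundant RNA for the co-receptor and for Nodal, and very little for the activin subunit INHBA. Bowtie2, with which the authors aligned the reads, does not align across splice junctions, and the effect of this on the order was not tested.

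**Figure D1:**
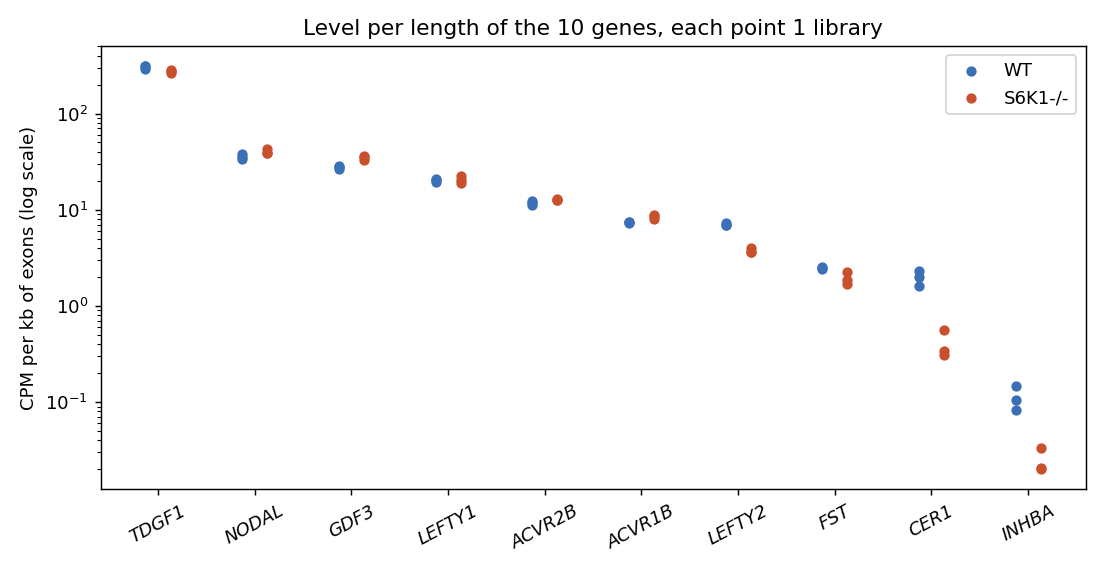
Level of the 10 genes in CPM per kilobase of exons on a log axis, ordered by the WT mean, with 1 point per library and 3 libraries per group (blue WT, red S6K1-/-). The genes run from about 300 CPM per kb for TDGF1 to about 0.1 CPM per kb for INHBA in WT hESCs, and the red points lie clearly apart from the blue points for LEFTY2, CER1 and INHBA.

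At an adjusted p under 0.001, the threshold of the study, 3 of the 10 genes were lower and 1 was higher in S6K1-/- hESCs. Over all 19521 genes tested, 2.54% were lower and 1.42% were higher, 3.96% in all. CER1 and LEFTY2, antagonists of Nodal, and INHBA, the activin subunit, were the lower genes, and the ligand GDF3 was the higher gene. CER1 and INHBA passed the filter on low counts through the WT libraries, where they were higher. With at least 10 counts required in every library, these genes were not tested and 1 of the 10 genes was lower. At an adjusted p under 0.05, 4 of the 10 were lower, against 8.31% of all genes, and 2 were higher, against 5.47%, with TDGF1 added to the lower and ACVR1B to the higher genes, both of which lost this call without some single libraries. In CPM, WT and S6K1-/- libraries were fully separated for 9 of the 10 genes, against 30.7% of all genes, with 5 of them lower in S6K1-/- hESCs (16.7% of all genes) and 4 higher (14%). The exception was LEFTY1. The median log2 fold change of the 10 genes was -0.07, against -0.0024 over all genes tested. In bulk RNA, a smaller number of expressing cells and less RNA per cell cannot be told apart.

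**Figure D2:**
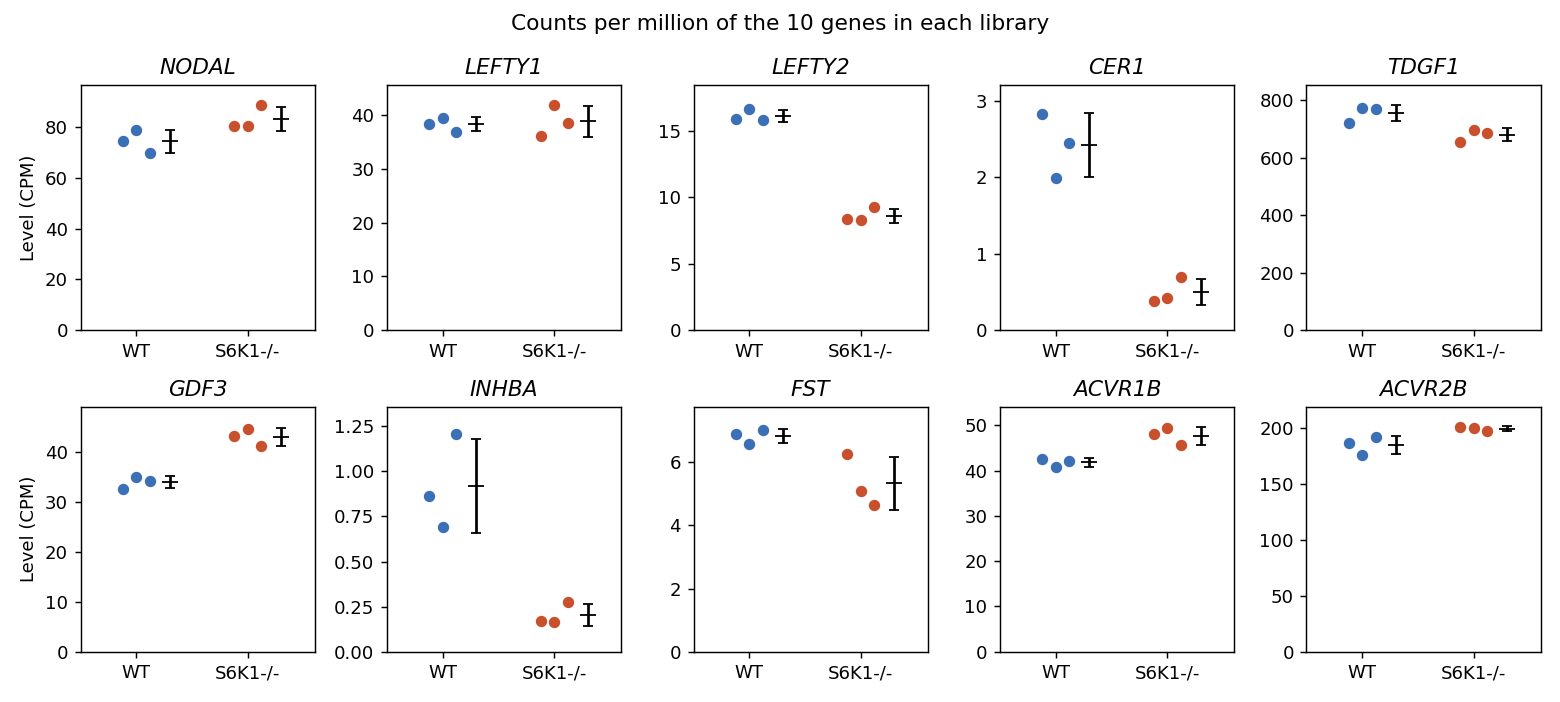
CPM of each gene in each library (points, replicates 1 to 3 from left to right, blue WT, red S6K1-/-), with the group mean ± SD (black, n = 3) beside them and each axis starting at 0. The groups overlap only for LEFTY1, and the S6K1-/- points of LEFTY2, CER1 and INHBA lie far below those of WT.

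Promoter windows, the 250 bases before the annotated start, were found in RefSeq (GRCh38.p14) for 8 of the 10 genes, in 10 windows, and not for LEFTY1 and LEFTY2. Those of CER1, INHBA and GDF3 are shown since these genes changed, with matches to the motifs searched in capitals. The motifs, searched on both strands, were AATCCAC for FOXH1, the usual DNA-binding partner of SMAD2, CAGAC for SMAD proteins, ATGCAAA for POU factors and TATAAA for the TATA box. The windows lie at chr9:14722734-14722983 for CER1, chr7:41703091-41703340 for INHBA and chr12:7695776-7696025 for GDF3, all on the minus strand.
CER1: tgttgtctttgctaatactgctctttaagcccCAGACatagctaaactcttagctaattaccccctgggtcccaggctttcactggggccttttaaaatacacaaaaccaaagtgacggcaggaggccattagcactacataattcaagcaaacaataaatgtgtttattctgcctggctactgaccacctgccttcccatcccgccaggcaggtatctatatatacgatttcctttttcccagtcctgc
INHBA: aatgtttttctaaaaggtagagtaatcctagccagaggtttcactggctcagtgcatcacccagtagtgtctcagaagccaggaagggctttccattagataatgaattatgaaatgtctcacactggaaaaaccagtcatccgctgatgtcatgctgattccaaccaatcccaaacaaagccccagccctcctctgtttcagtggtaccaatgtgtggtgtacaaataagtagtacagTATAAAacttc
GDF3: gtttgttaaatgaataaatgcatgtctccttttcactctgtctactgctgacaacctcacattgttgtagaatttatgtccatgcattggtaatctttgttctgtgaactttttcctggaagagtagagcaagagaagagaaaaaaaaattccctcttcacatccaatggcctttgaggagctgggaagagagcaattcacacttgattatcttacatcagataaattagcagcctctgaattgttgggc
CER1 held the SMAD motif at position -218 from the start, INHBA the TATA box at -11, and GDF3 none of the 4 motifs. The SMAD motif was also found once before NODAL and once in 1 of 2 windows of ACVR1B, and it occurs in 38% of all 35116 windows of this kind. FOXH1 and POU motifs were found in none of the 10 windows and occur in 1.97% and 3.94% of all windows, and the TATA box in 10.7%. A match describes letters in these windows only.

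Of the ligands, NODAL lies on the minus strand of chromosome 10 (GRCh38, 70431936 to 70447951 in the GENCODE annotation). It had 74.5, 79.0 and 69.7 CPM in WT and 80.6, 80.4 and 88.6 CPM in S6K1-/- replicates 1, 2 and 3. The S6K1-/- libraries were all above the WT libraries, but by little. The log2 fold change was 0.16 (95% interval 0.047 to 0.27, edgeR adjusted p = 0.0596), so that the gene was not past the threshold, and a rise above 1.21-fold lay outside the interval. In the GENCODE annotation, a gene without a symbol on the opposite strand covers 33.5% of the exons of NODAL. Since the strand setting of the counting is not given in the sources used here, reads of such a pair cannot be told apart.

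GDF3, a ligand related to Nodal with its gene on the minus strand of chromosome 12 (7689784 to 7695775), was the member that rose. Its level was 32.5, 35.0 and 34.2 CPM in WT and 43.2, 44.6 and 41.1 CPM in S6K1-/- replicates 1, 2 and 3. Every S6K1-/- library was above every WT library, and the spread within a group (SD 1.25 and 1.78 CPM, n = 3 each) was small beside the difference between the means of 33.9 and 43.0 CPM. Its log2 fold change was 0.34 (SE, standard error, 0.053; edgeR adjusted p = 3.99e-04), a rise of 26.8%. It was not past the threshold of 0.001 without WT replicates 1 or 3 (edgeR adjusted p = 0.00253 and 0.00183) or without S6K1-/- replicates 1 or 2 (0.00333 and 0.00343), at log2 fold changes from 0.32 to 0.38 with each library left out in turn.

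INHBA encodes the βA subunit, of which activin A is a dimer, and lies on the minus strand of chromosome 7 (41667168 to 41705834). It was rare in all libraries, with 21, 17 and 28 counts in WT and 4, 4 and 6 counts in S6K1-/- replicates 1, 2 and 3. The highest S6K1-/- library thus held fewer reads than the lowest WT library. Its log2 fold change was -2.15 (SE 0.37; edgeR adjusted p = 9.56e-04), which is 4.43-fold lower. From the summed counts of 66 and 14 alone, the ratio of WT to S6K1-/- was 4.52 with an exact 95% interval from 2.51 to 8.72, which covers counting error only. The adjusted p lay just under 0.001 and was above it without each library except WT replicate 2, being 0.00329 and 0.00827 when WT replicates 1 and 3 were left out, and 0.00700, 0.00760 and 0.00350 when S6K1-/- replicates 1, 2 and 3 were. It was also above it with DESeq2's size factors (0.00102) and with DESeq2's Wald test (0.00500), while INHBA was lower in each of these fits. The transcript INHBA-AS1, which overlaps INHBA on the opposite strand, had no counts in any library.

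**Figure D3:**
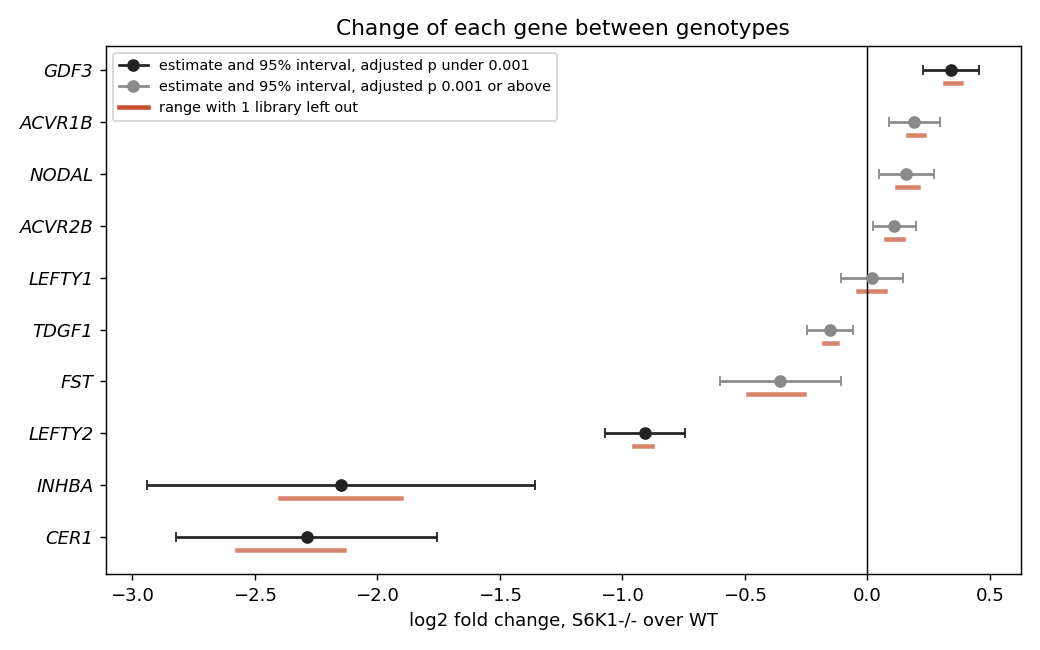
log2 fold change of each gene in S6K1-/- over WT hESCs (points) with its 95% interval from edgeR (thin lines; black where the adjusted p is under 0.001) and the range of estimates with 1 library left out (red bars). CER1 and INHBA lie near -2, LEFTY2 near -0.9 and GDF3 near 0.3, while the other genes lie between -0.36 and 0.19.

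TDGF1, which encodes the co-receptor Cripto (RefSeq now lists the gene as CRIPTO), lies on the plus strand of chromosome 3 (46574534 to 46582457). It had 722, 775 and 769 CPM in WT and 654, 697 and 688 CPM in S6K1-/- replicates 1, 2 and 3. All S6K1-/- libraries were below the WT libraries, with the lowest WT and the highest S6K1-/- library close together. The log2 fold change was -0.15 (95% interval -0.25 to -0.059, edgeR adjusted p = 0.0308), which did not pass 0.001. It was above 0.05 without WT replicates 2 or 3 (0.0716 and 0.134) or S6K1-/- replicates 1 or 3 (0.166 and 0.0586). The retrogene TDGF1P3 on the X chromosome is 98.8% identical to TDGF1 over 564 aligned coding bases, with a longest identical run of 257 bases. Of the windows of 150 bases in the TDGF1 transcript, the length of a read, 10% were found unchanged in TDGF1P3. These are exact matches in spliced transcripts, whereas Bowtie2, the aligner of the study, does not align across splice junctions. How many reads of TDGF1 were counted at TDGF1P3 was therefore not measured. TDGF1P3 had from 11.3 to 12.5 CPM in WT and from 11.0 to 13.9 CPM in S6K1-/- hESCs, which overlapped, with a log2 fold change of 0.07 (edgeR adjusted p = 0.676). When the counts of TDGF1 and its pseudogenes were summed, the log2 fold change was -0.14 (SE 0.044; edgeR adjusted p = 0.0422). LRRC2, which overlaps 110 exonic bases of TDGF1 on the opposite strand, had from 2708 to 3085 counts in WT and from 2460 to 2520 in S6K1-/- hESCs, and its part in the difference of TDGF1 was not tested.

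The receptor genes had slightly higher mean levels in S6K1-/- hESCs, and neither passed 0.001. ACVR1B, the type I receptor kinase ALK4 for activin and Nodal (chromosome 12, 51951699 to 51997078, plus strand), had 42.6, 40.7 and 42.0 CPM in WT and 48.1, 49.4 and 45.6 CPM in S6K1-/- replicates 1, 2 and 3. The groups did not overlap, and the log2 fold change was 0.19 (95% interval 0.087 to 0.30, edgeR adjusted p = 0.0163). Without S6K1-/- replicates 1 or 2 the adjusted p of ACVR1B was above 0.05 (0.0696 and 0.0694). ACVR2B, a type II receptor (chromosome 3, 38453890 to 38493142, plus strand), had 187, 176 and 192 CPM in WT and 201, 200 and 197 CPM in S6K1-/- hESCs. Its groups did not overlap either, but the gap between them was smaller than the spread among the WT libraries. The log2 fold change was 0.11 (95% interval 0.021 to 0.20, edgeR adjusted p = 0.0978).

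The antagonists LEFTY1 and LEFTY2 are neighboring copies on the minus strand of chromosome 1, with LEFTY1 from 225886282 to 225911382 and LEFTY2 from 225936598 to 225941383, 25215 bases apart. They encode secreted proteins that bind Nodal or its co-receptor and block signalling. The coding sequences have 1098 bases each and are 97.2% identical, with an identical run of 300 bases. Within the coding sequence, the assignment of reads to either copy rests on the few bases at which the copies differ. The coding sequence makes up 1098 of the 2019 bases of the canonical LEFTY2 transcript. Of the windows of 150 bases in the LEFTY2 transcript, 8.07% were found unchanged in the LEFTY1 transcript. This too counts exact matches in spliced transcripts and not reads. How the authors treated reads that align to several places is not given in the sources used here.

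LEFTY2 had 388, 410 and 368 counts in WT and 196, 198 and 201 counts in S6K1-/- replicates 1, 2 and 3, or 15.9, 16.7 and 15.8 CPM against 8.35, 8.27 and 9.23 CPM. The groups were far apart beside their spread. LEFTY2 fell by 46.7%, a log2 fold change of -0.91 (SE 0.076; edgeR adjusted p = 7.42e-07), and was past 0.001 in every alternative fit that was run. LEFTY1 had 936, 972 and 859 counts in WT and 849, 1005 and 838 counts in S6K1-/- hESCs, or 38.4, 39.5 and 37.0 CPM against 36.2, 42.0 and 38.5 CPM. These groups overlapped, and the lowest and the highest library were both S6K1-/- libraries. The log2 fold change of LEFTY1 was 0.02 (95% interval -0.11 to 0.15, edgeR adjusted p = 0.870), and its sign changed without S6K1-/- replicate 2 (-0.04).

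Within a library, the share of LEFTY2 in the counts of both LEFTY genes does not depend on the scaling between libraries. This share was 29.3%, 29.7% and 30.0% in WT replicates 1, 2 and 3, with 95% Wilson intervals from 26.9% to 32.6% in all. In S6K1-/- replicates 1, 2 and 3 it was 18.8%, 16.5% and 19.3%, with intervals from 14.5% to 21.9% in all. None of the S6K1-/- intervals reached a WT interval. The difference between the means was -11.5 percentage points (29.7% ± 0.344 against 18.2% ± 1.53, SD, n = 3 each), and the two-sided exact permutation test gave p = 0.1, the smallest p that 3 libraries against 3 can give. Summed into 1 row, both genes had a log2 fold change of -0.19 (SE 0.052; edgeR adjusted p = 0.0209), which did not pass 0.001. The annotation places another protein-coding gene without a symbol over 46.6% of the exons of LEFTY1 and an RNA gene over 7.66% of those of LEFTY2, both on the same strand, and reads shared with them were not resolved.

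**Figure D4:**
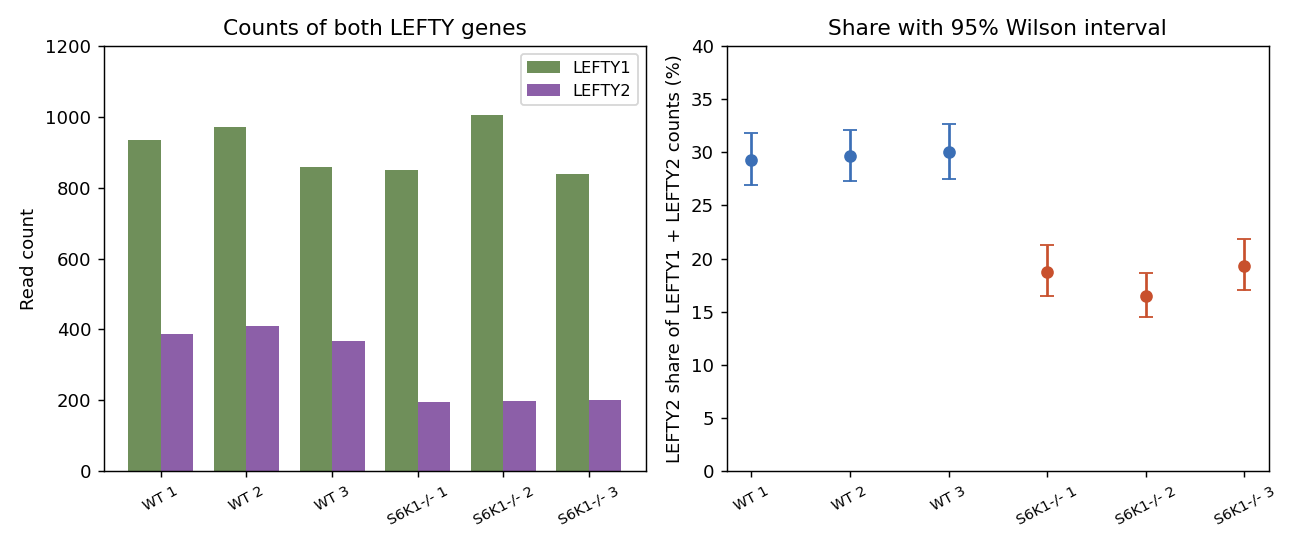
Left, read counts of LEFTY1 (green) and LEFTY2 (purple) in each library. Right, the share of LEFTY2 in their sum in percent with 95% Wilson intervals, which cover counting error only; the 3 WT shares lie at 29.3% to 30.0% and the 3 S6K1-/- shares at 16.5% to 19.3%.

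CER1 encodes Cerberus, a secreted antagonist that binds Nodal and BMP ligands, on the minus strand of chromosome 9 (14719724 to 14722733). It had 69, 49 and 57 counts in WT and 9, 10 and 15 counts in S6K1-/- replicates 1, 2 and 3, or 2.83, 1.99 and 2.45 CPM against 0.383, 0.418 and 0.689 CPM. The S6K1-/- library with the most CER1 remained well below the WT library with the least. The log2 fold change of CER1 was -2.29 (SE 0.25; edgeR adjusted p = 1.31e-05), which is 4.89-fold lower. Its interval (-2.82 to -1.76) overlapped that of INHBA (-2.94 to -1.36). From the summed counts of 175 and 34, the ratio was 4.94 with an exact 95% interval from 3.40 to 7.35 for counting error. With each library left out in turn, the log2 fold change ran from -2.58 to -2.14 and the adjusted p stayed under 0.001.

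CER1 also marks early endoderm, and the endoderm markers were therefore set beside it. Of 10 such genes, 5 passed the filter on low counts, none was past 0.001, and 2 were lower at an adjusted p under 0.05 (FOXA2 and CXCR4), against 8.31% of all genes. Of the 5 tested, 4 had a log2 fold change below 0, with a median of -0.88, among them GATA4 (-0.64, edgeR adjusted p = 0.0894) and AFP (-0.93, 0.121), which did not pass 0.05. HHEX, another endoderm transcription factor of the list, lay on the other side, with mean levels of 5.55 CPM in WT and 7.12 CPM in S6K1-/- hESCs, groups that did not overlap, and an edgeR adjusted p of 0.0646. AFP (13, 9 and 4 counts in S6K1-/- replicates 1, 2 and 3) and CXCR4 (16, 16 and 3) passed the filter through the WT libraries. The filter thus favored a log2 fold change below 0 for them, and the number below 0 and the median only describe the genes tested. The summed level of the 10 ran from 14.1 to 16.6 CPM in WT and from 11.4 to 12.9 CPM in S6K1-/- hESCs. FOXA2, an endoderm transcription factor named after its value was seen, had 136, 189 and 116 counts in WT and 78, 81 and 71 in S6K1-/- hESCs, or -0.88 in log2 fold change (edgeR adjusted p = 0.00108). SOX17, GATA6, TTR and APOA1 had at most 3 counts in any library. The part of endoderm cells in the fall of CER1 was not tested.

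FST encodes follistatin, which binds and neutralizes activins, on the plus strand of chromosome 5 (53480626 to 53487134). It had 6.90, 6.59 and 7.02 CPM in WT and 6.26, 5.10 and 4.64 CPM in S6K1-/- replicates 1, 2 and 3. All S6K1-/- libraries were below the WT libraries, but replicate 1 stood close to them, and the SD of 0.836 CPM in S6K1-/- hESCs was larger than the 0.221 CPM in WT. The log2 fold change of -0.36 (95% interval -0.60 to -0.11, edgeR adjusted p = 0.0544) did not pass the threshold. INHBA and its inhibitor FST thus both had lower mean levels, but only INHBA was past 0.001, and the difference between their changes was not tested.

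Mesenchymal markers also moved with the genotype and are given beside INHBA, which fibroblasts express strongly. Of 10 such markers, 6 passed the filter on low counts and 4 of them were lower at an adjusted p under 0.001 (COL1A1, COL1A2, PDGFRB and TWIST2), against 2.54% of all genes, with none higher. The summed level of the 10 ran from 634 to 652 CPM in WT and from 545 to 565 CPM in S6K1-/- hESCs, most of it from THY1, which pluripotent stem cells express too. DCN had no counts, and COL3A1, LUM and TWIST1 had at most 3 in any library. Their part in the fall of INHBA was not tested.

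The spread within groups was widest for the genes with the fewest counts. In WT hESCs the coefficient of variation over libraries was 28.4% for INHBA and 17.4% for CER1, where counting alone gives 21.3% and 13.1%. In S6K1-/- hESCs it was 30.2% for INHBA and 33.7% for CER1, where counting alone gives 46.3% and 29.7%. For TDGF1, with 14966 to 19040 counts in each library, it was 3.81% in WT and 3.36% in S6K1-/- hESCs, against 0.742% and 0.799% from counting. The most variable well-counted case was FST in S6K1-/- hESCs, with 15.7% against 9.00% from counting. For the other 6 genes the coefficient of variation was at most 7.53% in either group.

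Other genes of the pathway were taken from 5 lists written by role. Of 62 of their genes in the table, 53 were tested, with genes of 2 lists counted once, and at an adjusted p under 0.001 2 were lower and 1 was higher, against 2.54% and 1.42% of all genes. At an adjusted p under 0.05, 6 were lower and 8 were higher, against 8.31% and 5.47% of all genes. The median log2 fold change of the 53 genes was 0.01, with 26 of them below 0.

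Among other ligands, co-receptors and convertases, such as INHBE, BMP4 and the convertase FURIN, none of 8 genes tested was past 0.001 or 0.05, and the groups overlapped for each of them. BMP4, a ligand of the BMP branch, had a log2 fold change of -0.11 (95% interval -0.36 to 0.13, edgeR adjusted p = 0.591) and INHBE, another activin subunit, of 0.06 (95% interval -0.10 to 0.21, edgeR adjusted p = 0.691). The activin subunit INHBB had from 3 to 9 counts and did not pass the filter. Of 7 other receptors none was past 0.001, and 1 was lower at an adjusted p under 0.05, against 8.31% of all genes. TGFBR3, a co-receptor that binds inhibins and TGFβ, had 4.65 ± 0.579 CPM in WT and 3.24 ± 0.227 CPM in S6K1-/- hESCs (SD, n = 3 each), with a log2 fold change of -0.52 (edgeR adjusted p = 0.0159). TGFBR1, the type I receptor of TGFβ, had a log2 fold change of 0.15 (edgeR adjusted p = 0.0672).

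Of 11 SMADs and nuclear partners none was past 0.001, and 3 were higher and 1 was lower at an adjusted p under 0.05, against 5.47% and 8.31% of all genes. SKIL, a repressor of SMAD complexes that the pathway itself induces, had the smallest adjusted p, with a log2 fold change of 0.22 (edgeR adjusted p = 0.00211). SMAD3, a transducer of the pathway, had a log2 fold change of 0.20 (edgeR adjusted p = 0.00322). Of 13 extracellular and cytoplasmic inhibitors, FSTL1 was lower and SMAD7 was higher at 0.001, against 2.54% and 1.42% of all genes, and at an adjusted p under 0.05 1 was lower and 3 were higher, against 8.31% and 5.47%. FSTL1, a secreted protein related to follistatin, had 444 ± 6.91 CPM in WT and only 326 ± 3.40 CPM in S6K1-/- hESCs, or -0.45 in log2 (SE 0.038; edgeR adjusted p = 8.72e-07). SMAD7, an inhibitory SMAD induced by the pathway, rose from 49.7 ± 0.679 CPM to 61.8 ± 2.12 CPM, or by 0.31 in log2 (SE 0.044; edgeR adjusted p = 1.60e-04), but had an adjusted p of 0.00114 without WT replicate 1 and of 0.00134 and 0.00115 without S6K1-/- replicates 2 and 3.

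The list of response genes holds genes that activin or Nodal is known to induce. Of 17 tested, 1 was lower and 1, SMAD7, was higher at 0.001, against 2.54% and 1.42% of all genes, and at an adjusted p under 0.05 3 were lower and 5 were higher, against 8.31% and 5.47% of all genes. FOXA2 and CXCR4, a chemokine receptor of early endoderm, were lower at 0.05, and SKIL, MIXL1 and PMEPA1 were higher, all named after their values were seen. MIXL1, a mesendoderm homeobox gene, had a log2 fold change of 0.24 (edgeR adjusted p = 0.0449). NANOG, a SMAD target in pluripotent cells, had a log2 fold change of 0.05 (edgeR adjusted p = 0.428).

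**Figure D5:**
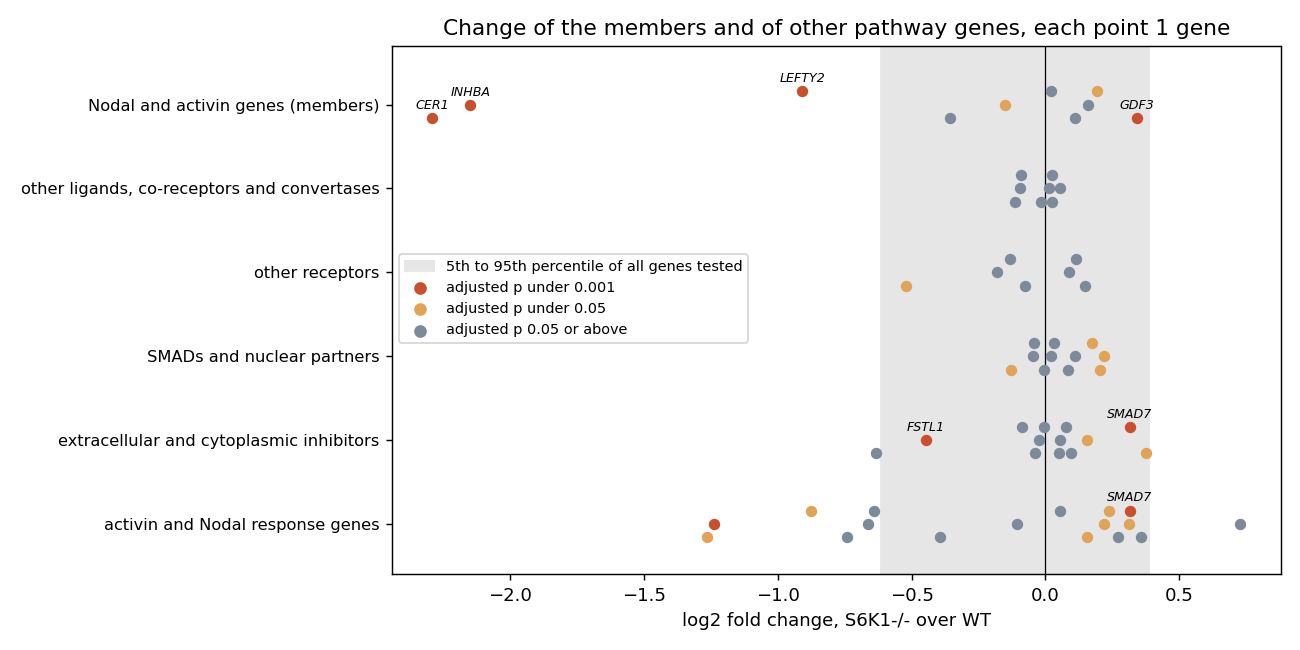
log2 fold change in S6K1-/- over WT hESCs of the 10 genes (top) and of the genes tested in 5 other pathway lists, with 1 point per gene, colored by adjusted p from edgeR, and the range from the 5th to the 95th percentile of all genes tested in grey. Names are given for the members past 0.001 and for FSTL1 and SMAD7, which is in 2 lists; CER1, INHBA and LEFTY2 lie outside the grey range, and GDF3 lies inside it.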

How the data were processed

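Bulk RNA sequencing libraries of undifferentiated WT and S6K1-/- H7 hESCs (3 each) were analyzed. Groups and replicate numbers were taken from the sample labels. According to the study's methods and the submitters' processing notes, the authors prepared TruSeq stranded mRNA libraries, trimmed paired reads with Trim Galore 0.6.5, aligned them to GRCh38 with Bowtie2 2.4.5, which does not align across splice junctions, and counted them per gene with featureCounts. The counts were deposited as whole numbers without normalization. Neither the release of the annotation nor the strand setting is given in the sources used here. A second deposited table holds the authors' own comparison from DESeq2 (fold changes, standard errors and p-values) and was not used.

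Genes were filtered with filterByExpr, which kept 19521 of 61155 symbols, scaled by TMM and tested with edgeR's quasi-likelihood F test (edgeR 4.0.16, R 4.3.3), in a model of genotype alone. The Benjamini-Hochberg adjustment ran over all genes tested, at a threshold of 0.001. The steps were tested on simulated data. Standard errors were taken from the log2 fold change and the F statistic. Library totals were 21896698 to 24473013 counts, and intervals from counts cover counting error only. Positions, exonic lengths and transcripts came from GENCODE 44. Coding sequences were aligned with Biopython 1.88, and promoters came from RefSeq.

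All 10 genes are named, with RPS6KB1, POU5F1 and NANOG. Of each other pathway list, the genes past 0.001 are named, up to 5 in each direction, or the 2 genes with the smallest adjusted p where none passed; some genes and a sequence that this rule or the comparison of copies would give are not reported here. The genes and lists were chosen with earlier results of these data known. Alternatives were a threshold of 0.05, leaving out each library, a block for the replicate number, summing near-identical copies, dropping the filter or requiring 10 counts per library, scaling by DESeq2's size factors, and DESeq2 1.42.0 with its Wald test. Replicates of a group differed by more than counting noise (chi-square over its degrees of freedom 2.24 to 4.53).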

Additional observations from a re-analysis of the deposited data

How the results depend on the processing

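Over all genes, 496 were lower and 278 higher. Without the filter on low counts the numbers were 982 and 591, and at an adjusted p under 0.05 they were 1622 and 1067. With each library left out in turn they ran from 313 to 445 and from 175 to 235. Of the 10 genes, 3 lower genes became 1 when at least 10 counts were required in every library, since CER1 and INHBA were then not tested. Of the leave-one-out fits, 2 to 3 of the 10 were lower and 0 to 1 higher, and at an adjusted p under 0.05 2 were higher. In the other pathway lists, 2 lower genes became 5 without the filter and 6 at 0.05, and 1 to 3 with a library left out. The 1 higher gene became 2 with DESeq2's size factors, 3 with DESeq2's Wald test, 3 without the filter and 8 at 0.05, and 0 to 2 with a library left out. LEFTY1 had log2 fold changes from -0.038, without S6K1-/- replicate 2, to 0.072 with a library left out, and POU5F1 had log2 fold changes from -0.11 to 0.0055 with a library left out, with 0.0055 and 0.00057 without S6K1-/- replicates 1 and 2. The cause was not tested. The other 9 of the 10 genes kept their direction in every fit. The summed LEFTY genes stayed between -0.24 and -0.15 and the summed TDGF1 genes between -0.17 and -0.12 with a library left out. The difference in LEFTY2 share ran from -12.0 to -10.6 points with a library left out and was -10.3 per kilobase.

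The labels do not pair the libraries by number, and deviations of same-numbered libraries from their group means hardly correlated (Pearson's r across genes 0.018, 0.0017 and 0.032). With the replicate number as a block, 2 of the 10 genes were lower and 1 was higher, INHBA having an adjusted p of 0.00114. The blocked difference in LEFTY2 share was -11.5 points, the summed LEFTY genes had a log2 fold change of -0.19 and the summed TDGF1 genes of -0.14, and 2 genes of the other lists were lower and 1 was higher. The counts of INHBA and CER1 limit how closely their changes can be given, as their intervals show.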
